A study of Mus musculus with 6 samples.

Results

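The probes described here were the oligonucleotides of a mouse lncRNA array whose names begin with CUST_ and which were printed on a single spot. They were found by their names and by the number of spots, after control spots had been left out, and numbered 91695 of the 145548 probes of the array. The remaining probes were 50481 single-spot probes whose names begin with A_, the manufacturer's catalogue prefix, and 2162 CUST_ and 1210 A_ probes that were spotted 10 times. Signal was measured on 6 one-colour Agilent arrays with Cy3-labelled cRNA from total RNA of the inner ear, with 1 mouse per array. The mice were 3 Fscn2+/+ and 3 Fscn2-/- animals at 8 weeks of age. Both genotypes were on the C57BL/6J background and sex was not limited. The Fscn2-/- mice carried a null mutation made by TALEN with vectors directed at the first exon of Fscn2, in every cell of the animal. Fscn2 encodes fascin-2, a protein that cross-links actin filaments in the stereocilia of hair cells. The inner ear samples were of whole tissue, so fewer cells of a type and less RNA per cell cannot be told apart. The gene name column of the files holds only probe names. Neither the targeted gene nor markers of inner ear cell types could therefore be read out as a check of the labels.

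Long non-coding RNAs are transcripts that are spliced and polyadenylated much as mRNAs are but are not known to be translated. Many are transcribed from the opposite strand of a protein-coding gene or from its promoter in the other direction, and most are present at lower levels than mRNAs. Arrays for such transcripts add custom oligonucleotides to a catalogue set, each with a sequence that matches the strand of its target, so that labelled cRNA of the target can bind it. A probe that is not above background may face a transcript that is absent, a transcript that is rare, or no transcript at all.

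Every CUST_ probe was 60 bases long and carried a design number in its name, from 1 to 93857. The probes held 25.8 ± 2.30 G or C bases (SD over the 91695 probes) and their longest run of a single base had a median of 4. The 5 probes with the highest mean signal mark the top of the range that the arrays measured and are shown first, with every CG dinucleotide in capitals.
CUST_OEV3_066113: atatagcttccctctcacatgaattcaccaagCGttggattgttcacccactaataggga
CUST_OEV3_091299: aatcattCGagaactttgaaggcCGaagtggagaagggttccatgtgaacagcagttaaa
CUST_OEV3_066769: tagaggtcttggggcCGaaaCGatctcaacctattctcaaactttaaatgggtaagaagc
CUST_OEV3_074855: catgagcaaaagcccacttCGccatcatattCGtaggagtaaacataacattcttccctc
CUST_OEV3_065025: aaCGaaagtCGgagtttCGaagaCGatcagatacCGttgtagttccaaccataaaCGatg

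The composition of the sequences changed along the design numbers. CG dinucleotides are rare in mouse transcripts, and GC dinucleotides, the same letters in the other order, are not. In probes 1 to 49803 a probe held on average 0.547 CG and 2.41 GC dinucleotides, in probes 49804 to 75001 it held 0.564 and 2.46, and in probes 89766 to 93857 it held 0.624 and 2.45. The A_ single-spot probes held 0.810 CG and 2.49 GC. In probes 75002 to 89765 the order was turned, with 2.85 CG and 1.01 GC dinucleotides, and CG outnumbered GC in 78.9% of the 14492 single-spot probes of this range against 4.56% to 5.06% in the other ranges. The limits of this range were placed where the difference between the counts of the dinucleotides changed along the numbers, and used no signal. The limit between 49803 and 49804 was placed where the share of probes well above background changed, and is therefore a description of the signal.

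In the third range, as probes 75002 to 89765 are called below, a minority matched catalogue probes when their letters were read from the last base to the first. Of its 14492 probes, 279 shared at least 30 consecutive bases with an A_ single-spot probe when read backwards and 3 did so as listed. In the other ranges 0 of 48565, 0 of 24647 and 0 of 3991 probes did so backwards, and 63, 149 and 23 did so as listed. The 3 pairs with the longest shared stretch follow, with the stretch in capitals. In each pair the CUST_ probe is given as listed, then with the order of its bases turned around, followed by its A_ partner as listed.
CUST_OEV3_077604: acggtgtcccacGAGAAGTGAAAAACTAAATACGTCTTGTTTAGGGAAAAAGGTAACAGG
CUST_OEV3_077604 read backwards: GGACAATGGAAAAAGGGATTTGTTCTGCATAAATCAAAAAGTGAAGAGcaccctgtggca
A_52_P482925: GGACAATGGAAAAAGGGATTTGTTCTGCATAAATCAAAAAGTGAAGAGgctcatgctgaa
CUST_OEV3_076011: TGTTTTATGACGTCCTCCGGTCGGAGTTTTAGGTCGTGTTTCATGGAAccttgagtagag
CUST_OEV3_076011 read backwards: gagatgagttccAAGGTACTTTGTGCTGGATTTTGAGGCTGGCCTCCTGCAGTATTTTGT
A_55_P2931589: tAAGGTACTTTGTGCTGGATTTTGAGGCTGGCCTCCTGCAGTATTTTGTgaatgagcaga
CUST_OEV3_078590: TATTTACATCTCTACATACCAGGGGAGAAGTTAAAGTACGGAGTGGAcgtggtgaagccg
CUST_OEV3_078590 read backwards: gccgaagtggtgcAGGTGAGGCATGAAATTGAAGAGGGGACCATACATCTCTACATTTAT
A_51_P239699: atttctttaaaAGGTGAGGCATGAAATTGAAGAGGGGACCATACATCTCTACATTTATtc
The shared stretches of these pairs were 48, 48 and 47 bases long. The deposited sequences do not say in which order the bases were synthesised on the glass.

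Of the 175896 spots on an array that were not controls, 65107 to 89279 were well above background, a flag that Feature Extraction sets where a spot's signal exceeds its background beyond noise. No spot was saturated. Fscn2-/- array 3 had the fewest such spots. Fscn2+/+ arrays 1 and 2 were on one slide and Fscn2+/+ array 3 and all Fscn2-/- arrays were on another, so slide and genotype were partly confounded. In 35 of the 128 equal blocks of the array the raw signal was raised, with a 25th percentile that exceeded 1.2 times that of the median block on at least 1 array. These blocks held 27.3% of the CUST_ single-spot probes. Within them the 25th percentile of raw signal was 40.2, 41.4 and 49.3 on the Fscn2+/+ arrays and 54.7, 55.2 and 62.8 on the Fscn2-/- arrays, against 41.9 to 43.3 and 43.1 to 45.4 outside them. Signals below are log2 of the processed signal minus the array's 75th percentile over those probes that had the flag on all 6 arrays, and are called scaled log2 signal.

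About 1 CUST_ probe in 3 was well above background on an array. The share was 38.7%, 33.4% and 36.6% on the arrays of Fscn2+/+ mice 1, 2 and 3, while those of Fscn2-/- mice 1, 2 and 3 had 34.2%, 31.3% and 25.8%. The genotypes overlapped, with a mean of 36.2% ± 2.65 over the Fscn2+/+ arrays against 30.4% ± 4.28 over the Fscn2-/- arrays (SD, n = 3 each). The difference of -5.82 points was larger in size than either SD. The test did not separate the genotypes (exact two-sided permutation test over arrays, p = 0.2, adjusted p = 0.333 over 5 such tests), and 3 arrays against 3 cannot give a p below 0.1. The A_ single-spot probes were well above background more often on every array, at 72.5%, 68.8% and 69.9% in Fscn2+/+ and 67.7%, 64.3% and 57.4% in Fscn2-/- mice. Of the CUST_ probes, 47518 (51.8%) were well above background on no array and 19951 (21.8%) on all 6. The flag was set on all 3 Fscn2+/+ arrays and no Fscn2-/- array for 1076 probes, which were 1.17% of the CUST_ probes beside 1.32% of the A_ probes in the same pattern. The opposite pattern was found for 104 CUST_ probes, 0.113% beside 0.0475%. For 34.5% to 53.1% of the CUST_ probes of an array the processed signal was a surrogate that Feature Extraction puts in place of a signal near background, against 13.1% to 24.6% of the A_ probes.

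At equal mean signal the CUST_ and A_ probes were well above background about equally often. The flag is set from the signal of the same arrays, so matching on signal largely fixes this outcome and it says little about the probes. For this comparison the A_ probes were weighted to the CUST_ distribution over 16 strata of mean scaled log2 signal, each 1 unit wide, which covered 91688 CUST_ probes. The share in CUST_ minus that in A_ probes was -2.06, -1.91 and -0.23 percentage points in Fscn2+/+ mice 1, 2 and 3, while Fscn2-/- mice 1, 2 and 3 had 0.084, 1.06 and 1.31 points. The mean of the 6 differences was -0.29 points, below 0 on 3 of 6 arrays (exact two-sided sign-flip test, p = 0.688, adjusted p = 0.688). The Fscn2-/- arrays lay above the Fscn2+/+ arrays without overlap, by 2.22 points, which gave the smallest p that the design allows (exact permutation test, p = 0.1, adjusted p = 0.25). On the slide that held both genotypes, the Fscn2+/+ array also had the lowest difference.

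The CUST_ probes carried less than a proportionate part of the signal of the single-spot probes. Their share of the summed processed signal of CUST_ and A_ single-spot probes was 31.3%, 29.5% and 29.03% on the Fscn2+/+ arrays and 30.2%, 30.6% and 33.1% on the Fscn2-/- arrays. The genotypes overlapped (exact permutation test, p = 0.4, adjusted p = 0.5). The 10 brightest CUST_ probes of an array gave 9.98% to 12.4% of the CUST_ signal and the 100 brightest gave 28.6% to 32.8%. The median scaled log2 signal of CUST_ probes was -6.10, -6.30 and -6.05 on Fscn2+/+ and -5.99, -5.996 and -5.74 on Fscn2-/- arrays, while the 95th percentile stayed between -0.67 and -0.41. The dim end differed more between arrays than the bright end. Among CUST_ probes that were well above background on no array the median was -7.43, -7.23 and -7.29 on Fscn2+/+ and -6.94, -6.67 and -5.92 on Fscn2-/- arrays. The lowest scaled log2 signal at which any probe of the array was well above background was -5.68, -5.47 and -5.41 on Fscn2+/+ and -4.89, -4.61 and -3.85 on Fscn2-/- arrays. This difference in the level of dim spots moves with genotype and with the calls below, and its part in them was not tested.

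In each of the brightest CUST_ probes the values of the genotypes overlapped, and limma gave none an adjusted p below 0.05. CUST_OEV3_066113 had scaled log2 signals of 9.41, 9.48 and 9.39 on the Fscn2+/+ arrays and 9.31, 9.39 and 9.33 on the Fscn2-/- arrays, with a log2 fold change of -0.08 ± 0.14 (SE) and a 95% interval of -0.42 to 0.25 (limma, adjusted p = 0.83). CUST_OEV3_065025 had 7.66, 8.08 and 8.18 against 8.13, 8.28 and 8.14, with a log2 fold change of 0.21 ± 0.19 and an interval of -0.22 to 0.64 (limma, adjusted p = 0.647). For both probes the values of the genotypes overlapped. The other 3 of the brightest, CUST_OEV3_091299, CUST_OEV3_066769 and CUST_OEV3_074855, had log2 fold changes of 0.12, 0.10 and 0.07 with adjusted p of 0.773, 0.792 and 0.876. The signs of these 3 depended on the scaling. In CUST_OEV3_066113 the difference was larger in size than the SD between Fscn2+/+ mice (0.052) and between Fscn2-/- mice (0.043). The same held for CUST_OEV3_066769 (SD 0.092 and 0.069). The methods' t-test gave unadjusted p of 0.098 and 0.195 for these probes. In the others of the brightest the difference was smaller than the Fscn2+/+ SD.

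A probe was tested for genotype where one of the genotypes had it well above background on all 3 arrays, which held for 28162 CUST_ probes (30.7%), and the test was fitted over all 63104 such probes of the array. At the thresholds of the study (2-fold or more, with a p of 0.05 or less before adjustment), 1215 CUST_ probes (4.31% of those tested) were higher in Fscn2-/- mice and 155 (0.550%) were lower. Over all tested probes of the array 2.53% were called higher and 0.461% lower. A_ probes weighted to the same mean signals were called higher in 1.64% and lower in 0.688%. The values of the 2 genotypes did not overlap for 1057 of the 1215 higher and 133 of the 155 lower probes. Over all tested CUST_ probes, 24% had genotypes that did not overlap, against 20.6% of all tested probes. Without overlap, 17.8% were higher and 6.24% lower in Fscn2-/- mice, against 12.3% and 8.3% of all tested probes. Of the calls, 88.7% were higher. Quantile normalization gave 771 higher and 524 lower (59.5% higher) and the 75th percentile over all probes gave 846 and 380 (69.0% higher). Under that percentile the median over all tested probes moved from -0.01 to -0.18 in log2 fold change.

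Few of the calls held after adjustment over the array. An adjusted p below 0.05 was reached by 41 CUST_ probes (0.146%), against 0.0856% of all tested probes. Under the scaling used here all 41 were higher in Fscn2-/- mice. An unadjusted p below 0.05 was reached by 5486. Of the 41 probes, 34 lay in the raised blocks, 31 were well above background on none of the Fscn2+/+ arrays and 8 were well above background on all 6 arrays. The 31 probes entered the test only through the genotype in which they were high. Their p compares signals with a dim level that moved with genotype, so the count of 41 and its share are given as a description. The number fell to 2 without the raised blocks and to 1 with the slide as a block. Without Fscn2+/+ array 1 or 2 it was 0, and it was 819 without Fscn2+/+ array 3 and 225, 114 and 344 without Fscn2-/- arrays 1, 2 and 3. Of the 819 probes, 724 were higher. The direction also depended on the scaling. Quantile normalization and the authors' values each gave 36 higher of 40, and the 75th percentile over all probes gave 89 of 104. With the percentile over A_ probes all 27 were higher.

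The calls were mostly of dim probes. The median mean scaled log2 signal was -3.50 in the higher, -4.83 in the lower and -2.79 in all tested CUST_ probes. Among the lower probes 122 were well above background on none of the Fscn2-/- arrays, and among the higher probes 104 on none of the Fscn2+/+ arrays. Of the 19951 CUST_ probes that all 6 arrays measured above background, 710 (3.56%) were called higher and 6 (0.0301%) lower, against 1.96% and 0.0614% over the whole array. In the dimmest strata the log2 fold change of CUST_ probes lay below 0, with a median of -0.65 in 205 probes between -6 and -5 and of -0.07 in 4823 between -5 and -4. These strata held 136 of the 155 lower calls. Between -4 and -3 the median log2 fold change was 0.15 in 7696 CUST_ and -0.02 in 5374 A_ probes. Between 0 and 1 it was 0.02 in 1459 CUST_ and -0.06 in 3805 A_ probes, and 0.480% and 0.289% were called higher. Between 2 and 3 it was -0.07 in 443 CUST_ and -0.09 in 1180 A_ probes, and no probe of either kind was called.

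Relative to A_ probes of equal mean signal, the CUST_ probes lay higher in Fscn2-/- mice. The median log2 fold change was 0.08 in tested CUST_ probes and -0.06 in A_ probes weighted to them, a difference of 0.14. Array by array, the median of CUST_ minus that of weighted A_ probes was -0.06, -0.15 and -0.05 on Fscn2+/+ and -0.04, 0.03 and 0.16 on Fscn2-/- arrays. The genotypes did not overlap, and the test gave the smallest p that 3 arrays against 3 allow (exact permutation test, p = 0.1, adjusted p = 0.25). Fscn2+/+ array 3 and Fscn2-/- array 1, which shared a slide, lay next to each other in this order. The difference of the medians was positive under each of the 20 alternatives that gave one, from 0.07 to 0.25. The SD between mice of a genotype was 0.306 in tested CUST_ probes against 0.271 in A_ probes, as medians per stratum weighted to the CUST_ distribution. It was larger in CUST_ probes in every stratum between -6 and 4. In brighter strata it was smaller, with 0.180 against 0.218 between 4 and 5, 0.175 against 0.214 between 5 and 6 and 0.182 against 0.205 between 6 and 7.

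The 5 largest increases among probes that every array measured well above background were between 2.18 and 2.56 on the log2 scale, with adjusted p from 0.080 to 0.231, none below 0.05. Their sequences were no part of the selection and are shown with CG dinucleotides in capitals.
CUST_OEV3_015817: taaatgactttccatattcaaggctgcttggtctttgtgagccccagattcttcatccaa
CUST_OEV3_084090: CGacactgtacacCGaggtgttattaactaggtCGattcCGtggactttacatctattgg
CUST_OEV3_036965: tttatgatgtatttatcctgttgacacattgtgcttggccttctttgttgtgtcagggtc
CUST_OEV3_074483: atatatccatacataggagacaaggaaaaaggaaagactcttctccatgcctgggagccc
CUST_OEV3_013922: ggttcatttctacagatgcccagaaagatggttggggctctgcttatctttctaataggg
CUST_OEV3_084090 had scaled log2 signals of -3.46, -2.09 and -2.37 on Fscn2+/+ and -0.45, -0.16 and -0.03 on Fscn2-/- arrays. Every Fscn2-/- array lay above every Fscn2+/+ array, as the choice of these probes required, and the log2 fold change was 2.43 ± 0.35 (limma, adjusted p = 0.0796, and 0.030 to 0.552 over the alternatives). It belongs to the third range of numbers, with 4 CG and 0 GC dinucleotides. CUST_OEV3_036965 had -3.89, -3.69 and -2.29 against -1.29, -0.86 and -0.73, a log2 fold change of 2.33 ± 0.41 (limma, adjusted p = 0.118). Its Fscn2+/+ array 3 stood apart from the other Fscn2+/+ arrays, and the log2 fold change fell to 1.33 when slide was a block or only the second slide was used, and to 1.44 under normexp. These 2 probes lay outside the raised blocks and were called higher under every alternative that was run on them. CUST_OEV3_015817 had -4.89, -3.94 and -4.92 against -3.19, -2.00 and -0.88, CUST_OEV3_074483 had -4.02, -4.65 and -3.86 against -2.81, -2.57 and -0.59, and CUST_OEV3_013922 had -5.01, -4.41 and -4.58 against -3.37, -2.71 and -1.39. These 3 probes lay in the raised blocks, and in each Fscn2-/- array 3 was the highest. For CUST_OEV3_013922 the log2 fold change of 2.18 turned to -0.28 after each array had been centred by block and brightness.

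The 5 largest decreases, chosen like the increases among called probes with the flag on each of the 6 arrays and genotypes that do not overlap, were smaller, between -1.43 and -1.01, with adjusted p from 0.118 to 0.277.
CUST_OEV3_006539: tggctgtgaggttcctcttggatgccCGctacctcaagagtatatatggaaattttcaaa
CUST_OEV3_076857: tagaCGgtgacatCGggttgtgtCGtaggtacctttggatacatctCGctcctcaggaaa
CUST_OEV3_046145: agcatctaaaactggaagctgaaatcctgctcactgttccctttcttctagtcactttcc
CUST_OEV3_017242: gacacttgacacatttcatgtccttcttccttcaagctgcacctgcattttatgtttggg
CUST_OEV3_068113: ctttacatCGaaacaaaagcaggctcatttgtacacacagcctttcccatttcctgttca
All 5 lay in the raised blocks, where the raw signal was higher on the Fscn2-/- arrays. CUST_OEV3_006539 had scaled log2 signals of 0.10, 0.96 and 0.50 on Fscn2+/+ and -1.24, -0.47 and -1.03 on Fscn2-/- arrays, a log2 fold change of -1.43 ± 0.28 (limma, adjusted p = 0.153). CUST_OEV3_068113 had 0.86, 1.22 and 0.90 against -0.14, 0.17 and -0.08, a log2 fold change of -1.01 ± 0.18 (limma, adjusted p = 0.118). In both probes the 3 values of a genotype lay within 1 unit of each other, and the absence of overlap was a condition of their choice. Of 20 settings, the main one included, CUST_OEV3_006539 was called in 20 and CUST_OEV3_068113 in only 11. The call of CUST_OEV3_068113 was lost under quantile normalization, in the authors' values, with the slide as a block and on the second slide alone, among others. CUST_OEV3_046145 had 1.79, 1.79 and 1.87 against 1.19, 0.99 and -0.30, so that its decrease was largest on Fscn2-/- array 3. Without that array its log2 fold change went from -1.19 to -0.73 and the call was lost, as it was with the slide as a block, on the second slide alone and with the methods' t-test. CUST_OEV3_076857 and CUST_OEV3_017242 had log2 fold changes of -1.27 and -1.04.

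The adjusted p was smallest, from 0.0111 to 0.0129 (limma), in CUST_OEV3_017641, CUST_OEV3_079519, CUST_OEV3_086608, CUST_OEV3_086354 and CUST_OEV3_040734. None was well above background on any Fscn2+/+ array and each was so on all Fscn2-/- arrays, so they entered the test only through the genotype in which they were high. Their p compares the Fscn2-/- signals with values below background, whose level moved with genotype, and is given as a description. The Fscn2+/+ level is therefore uncertain, and a fold is given as the Fscn2-/- mean over the mean of the lowest signal that was well above background on each Fscn2+/+ array. Probes without the flag can also lie above that level, so it is a reference and no bound. Over this reference the Fscn2-/- means were 3.28-fold, 3.72-fold, 3.77-fold, 3.58-fold and 5.15-fold, in this order, which holds for the processed signal. With normexp background correction the log2 differences were 0.70, 0.72, 0.77, 0.71 and 0.88, smaller than these folds, and the calls were lost. Adding slide as a block raised the adjusted p to between 0.152 and 0.159 (limma). CUST_OEV3_040734 had measured scaled log2 signals of -7.53, -7.30 and -6.50 on Fscn2+/+ and -3.17, -3.49 and -2.83 on Fscn2-/- arrays. CUST_OEV3_086608 had -7.54, -6.88 and -7.11 against -3.71, -3.75 and -3.37. All 5 lay in the raised blocks. CUST_OEV3_079519, CUST_OEV3_086608 and CUST_OEV3_086354 belonged to probes 75002 to 89765 and are shown with CG dinucleotides in capitals.
CUST_OEV3_079519: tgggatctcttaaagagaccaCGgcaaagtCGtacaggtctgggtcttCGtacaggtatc
CUST_OEV3_086608: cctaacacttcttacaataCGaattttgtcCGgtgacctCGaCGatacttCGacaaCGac
CUST_OEV3_086354: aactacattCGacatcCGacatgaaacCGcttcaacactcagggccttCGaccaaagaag

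The ranges of design numbers differed in how often their probes were well above background. Probes 49804 to 75001 were so most often, in 54.4% ± 4.60 (SD, n = 3) on the Fscn2+/+ and 43.2% ± 6.87 (SD, n = 3) on the Fscn2-/- arrays. Probes 1 to 49803 were well above background in 32.1% ± 2.45 and 27.4% ± 3.63, and probes 89766 to 93857 in 39.3% ± 2.74 and 32.4% ± 4.86 (SD, n = 3 each). Probes 75002 to 89765 were so least often, in 18.5% ± 1.81 on the Fscn2+/+ and 18.1% ± 1.94 on the Fscn2-/- arrays, and 70.1% of them were so on no array. The order of the 4 ranges was the same on every array. The limit between 49803 and 49804 was itself placed where the share of probes well above background changed. The difference in this share between the first and the second range therefore follows from the cut and is no separate result. In the third range the share was 17.7%, 17.2% and 20.6% on Fscn2+/+ and 19.8%, 18.5% and 15.96% on Fscn2-/- arrays, so the genotypes overlapped.

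Tested probes of the third range lay furthest towards Fscn2-/- mice. Their median log2 fold change was 0.34 over 2209 tested probes, against 0.16 over 12996 in the first, -0.05 over 11624 in the second and 0.08 over 1333 in the last range. Of the third range 10.3% of tested probes were called higher and 0.272% lower, against the 2.53% and 0.461% of the whole array. In the first, the second and the last range 5.27%, 2.14% and 4.05% were called higher and 0.454%, 0.748% and 0.225% lower. Leaving out the third range left 988 higher and 149 lower CUST_ probes, of which 31 had an adjusted p below 0.05. The median scaled log2 signal of all its probes was -7.42, -7.19 and -7.19 on Fscn2+/+ and -6.85, -6.55 and -5.89 on Fscn2-/- arrays, close on each array to the median given above for CUST_ probes well above background on no array. The level of dim spots moved with genotype in this range too, and its part in the calls was not tested.

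The 303 pairs of a probe of the third range with the A_ probe that it matched when read backwards gave unlike signals. The A_ partners were well above background in 98.0%, 98.3% and 97.4% of pairs on Fscn2+/+ and 97.4%, 95.7% and 91.1% on Fscn2-/- arrays. The CUST_ probes were so in 19.8%, 20.5% and 22.1% and in 22.1%, 20.1% and 21.1%. The median scaled log2 signal of the A_ partners stayed between -0.78 and -0.56 on all arrays, while that of the CUST_ probes was -7.41, -7.20 and -7.15 on Fscn2+/+ and -6.84, -6.51 and -5.88 on Fscn2-/- arrays. In the other ranges 252 pairs shared at least 30 bases as listed, and there 62.3% of CUST_ and 61.7% of A_ values were well above background and 72.6% of pairs had mean signals within 1 unit, against 10.9% of the backward pairs. The shares of values are over 6 arrays and pairs can share a probe. CUST_OEV3_077604 had scaled log2 signals of -7.57, -7.30 and -7.20 on Fscn2+/+ and -5.70, -4.82 and -2.20 on Fscn2-/- arrays and was well above background on 1 array, while its partner A_52_P482925 had 0.66, 1.02 and 0.96 and 0.64, 0.90 and 0.38. The partner was level across the arrays and CUST_OEV3_077604 was highest on Fscn2-/- array 3. CUST_OEV3_078590 was well above background on no array, at -7.65 to -5.91, and its partner A_51_P239699 was so on all 6, at -0.49 to -0.20.

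Some CUST_ probes repeat a sequence, which gives a measure of the error of a single spot. Another CUST_ probe of identical sequence existed for 3164 probes, which held 1481 different sequences. Most of these sequences, 1331, were held by 2 probes, and 807 of those pairs had consecutive numbers. In 264 such pairs that all 6 arrays measured well above background, the median absolute difference in scaled log2 signal was 0.118 to 0.147 on an array. Their log2 fold changes had the same sign in 218 of the 264 pairs, and a single probe's log2 fold change varied by an SD of 0.197 within a pair. In 16 pairs with both probes tested at least 1 probe was called at the study's thresholds, and in 3 of these both were.

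Pairs on one strand and on opposite strands were set side by side. Probes differ in how well they bind, so a difference between the signals of different sequences is no ratio of transcript levels. Between CUST_ and A_ single-spot probes 132 pairs shared at least 40 bases on the same strand and 12 on opposite strands. The brightest are shown with the shared bases in capitals.
CUST_OEV3_091299: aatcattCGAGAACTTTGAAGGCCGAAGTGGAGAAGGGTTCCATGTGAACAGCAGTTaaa
A_55_P2736734: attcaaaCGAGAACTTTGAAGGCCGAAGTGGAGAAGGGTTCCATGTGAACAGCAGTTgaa
CUST_OEV3_091348: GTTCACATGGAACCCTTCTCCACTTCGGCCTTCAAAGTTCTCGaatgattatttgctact
CUST_OEV3_093857: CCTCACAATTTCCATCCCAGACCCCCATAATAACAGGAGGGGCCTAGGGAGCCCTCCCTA
A_55_P2774298: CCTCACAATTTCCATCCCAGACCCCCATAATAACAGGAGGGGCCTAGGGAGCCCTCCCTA
CUST_OEV3_091299 and A_55_P2736734 shared 50 bases on the same strand and had scaled log2 signals of 8.87 to 9.23 and 9.02 to 9.45 over the 6 arrays. CUST_OEV3_091348 shared 43 bases with A_55_P2736734 on the opposite strand and had 3.90, 4.03 and 3.95 on Fscn2+/+ and 3.70, 3.57 and 3.75 on Fscn2-/- arrays, a log2 fold change of -0.29 ± 0.15 (limma, adjusted p = 0.43). Its Fscn2-/- values lay below its Fscn2+/+ values without overlap, but the difference missed both thresholds. CUST_OEV3_093857 and A_55_P2774298 have the same 60 bases and gave 5.96, 6.28 and 6.94 against 6.10, 6.40 and 6.94 on the Fscn2+/+ arrays, and 6.66, 6.70 and 6.28 against 6.67, 6.73 and 6.17 on the Fscn2-/- arrays. The pair rose and fell together over the arrays, with Fscn2+/+ array 3 the highest in both probes.

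The values of the remaining named pairs were as follows. On the same strand, CUST_OEV3_064370 shared 48 bases with A_55_P2065991, and their scaled log2 signals were 5.38 to 6.09 and 5.72 to 6.37. On opposite strands, CUST_OEV3_030893 shared 51 bases with A_66_P129156, at 0.92 to 1.33 and 3.70 to 4.06, and CUST_OEV3_020059 shared 40 bases with A_55_P2028511, at 1.81 to 2.17 and 2.27 to 2.81. Each of these 6 probes was well above background on every array. In the 132 same-strand pairs the mean signals lay within 1 unit in 86.4%, and in the 12 opposite-strand pairs in 25%. Among CUST_ probes themselves, 128 pairs shared at least 40 bases on opposite strands, and 35.9% lay within 1 unit.

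A minority of CUST_ probes could be placed next to an annotated gene. The 60 bases of each probe were searched for in 32851 windows around the starts of 27025 RefSeq genes, from 250 bases before to 50 bases after the start (GRCm38.p6), on both strands. An exact match was found for 354 probes, of which 344 matched 1 place and 10 several. By design number, matches were found for 205 of 48565 probes of the first, 128 of 24647 of the second, 0 of 14492 of the third and 21 of 3991 of the last range. Reading the bases backwards gave 0 in each range. No CUST_ probe matched the window of Fscn2 or of any of 28 marker genes of hair cells, supporting cells, neurons, myelin, bone, blood and muscle. Of probes matching 1 place, 182 read along the strand of the gene and were well above background in 25.3% to 32.4% on an array, and 170 read along the opposite strand and were so in 24.1% to 37.6%, and a few probes lay between genes of both strands and count in both. In the opposite orientation, 102 lay at protein-coding genes. The genes below were chosen for brightness or for being called, after the values had been seen.

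Several of the brightest matched probes lay upstream of protein-coding genes and read away from them. CUST_OEV3_062400 lies at chr2:45117575-45117634, with all 60 bases before the start of Zeb2 and on the strand opposite to it. Zeb2 encodes a zinc-finger transcription factor known from epithelial-mesenchymal transition and neural crest development.
CUST_OEV3_062400: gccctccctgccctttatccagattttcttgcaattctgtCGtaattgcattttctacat
Its scaled log2 signals were 5.44, 5.88 and 5.95 on Fscn2+/+ and 5.85, 6.03 and 5.98 on Fscn2-/- arrays, which overlap, with a log2 fold change of 0.20 ± 0.19 (limma, adjusted p = 0.673). CUST_OEV3_071487 lies at chr11:70654758-70654817, upstream of Pfn1 and opposite to it. Pfn1 encodes profilin-1, which binds actin monomers.
CUST_OEV3_071487: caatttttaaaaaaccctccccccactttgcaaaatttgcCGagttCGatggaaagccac
Its signals were 2.85, 2.83 and 3.27 against 3.21, 3.16 and 3.21, which overlap (log2 fold change 0.21 ± 0.17, limma, adjusted p = 0.625). The highest was Fscn2+/+ array 3, which shared a slide with the Fscn2-/- arrays, and the part of the slide was not tested. The probe lay in the raised blocks. At Dpf2, which encodes a subunit of a chromatin remodelling complex, 3 probes lay within chr19:5913011-5913072, upstream and on the opposite strand, and 2 of them were identical. CUST_OEV3_091833 and CUST_OEV3_026631, which were identical, had log2 fold changes of 0.27 ± 0.22 and 0.40 ± 0.19 and CUST_OEV3_063603 had 0.26 ± 0.16 (limma, adjusted p of 0.612, 0.397 and 0.516). The third probe is shifted by a few bases against the other 2, so the 3 probes are not independent. CUST_OEV3_091833 and CUST_OEV3_063603 lay in the raised blocks and CUST_OEV3_026631 did not. At D2hgdh, which encodes D-2-hydroxyglutarate dehydrogenase, CUST_OEV3_047297 at chr1:93825082-93825141 had 1.43, 1.89 and 1.81 on Fscn2+/+ and 1.76, 1.99 and 1.95 on Fscn2-/- arrays, which overlap (log2 fold change 0.19 ± 0.18, limma, adjusted p = 0.67).

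Probes that read along an annotated lncRNA gene covered a similar range. CUST_OEV3_037130 lies at chr13:62498906-62498965, before the start of Gm21145 on its strand, and had scaled log2 signals of 5.05, 4.10 and 4.24 on Fscn2+/+ and 4.08, 3.76 and 4.02 on Fscn2-/- arrays (log2 fold change -0.51 ± 0.27, limma, adjusted p = 0.434). CUST_OEV3_036944, at chr13:83662479-83662538 by Gm52044, had 3.00, 3.02 and 2.93 against 2.96, 2.94 and 2.97. Its values were level across all 6 arrays and overlapped, and its log2 fold change was -0.03 ± 0.14 (limma, adjusted p = 0.944).
CUST_OEV3_037130: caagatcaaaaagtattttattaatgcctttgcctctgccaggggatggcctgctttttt
CUST_OEV3_036944: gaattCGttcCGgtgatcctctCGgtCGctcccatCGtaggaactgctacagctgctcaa

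Of the 344 probes that matched 1 place, 92 were tested. At the study's thresholds 5 (5.43%) were called higher and 1 (1.09%) lower, beside 4.31% and 0.550% of all tested CUST_ probes and 2.53% and 0.461% of the array. All 6 lay by lncRNA genes, and none had an adjusted p below 0.05. CUST_OEV3_012585 lies at chr6:89285814-89285873, by 4930512J16Rik and on its strand. Its measured scaled log2 signals were -6.15, -6.55 and -6.28 on Fscn2+/+, where it was not well above background, and -4.15, -2.70 and -1.94 on Fscn2-/- arrays, where it was. In processed signal its Fscn2-/- mean was 6.04-fold over the reference level used above for probes below background in Fscn2+/+ mice. It lay in the raised blocks and was tested only because of the genotype in which it was high, so its p is not given. CUST_OEV3_012866, at chr6:47649458-47649517 by Gm40371 and on its strand, had -2.54, -2.00 and -0.44 against -0.36, 0.04 and 0.09, a log2 fold change of 1.58 ± 0.49 (limma, adjusted p = 0.277). Here Fscn2+/+ array 3 lay close to the Fscn2-/- arrays and apart from the other Fscn2+/+ arrays.
CUST_OEV3_012585: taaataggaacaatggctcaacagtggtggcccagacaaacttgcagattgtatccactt
CUST_OEV3_012866: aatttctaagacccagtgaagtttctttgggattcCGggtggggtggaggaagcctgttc
CUST_OEV3_001007, opposite Gm35813, was well above background on all 6 arrays, with a log2 fold change of 1.04 and genotypes that overlapped. The others were not above background throughout, so no fold is given for them. CUST_OEV3_069349, between Gm35109 and 4930519D14Rik, was well above background on 1 of 3 Fscn2+/+ arrays and all Fscn2-/- arrays. CUST_OEV3_071656, opposite Gm39827, was so on 2 of 3 Fscn2+/+ and all Fscn2-/- arrays, and CUST_OEV3_044677, opposite Gm51814, on all Fscn2+/+ and 1 of 3 Fscn2-/- arrays.

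A few CUST_ probes contain a mature miRNA. A miRNA is cut from a hairpin in a longer primary transcript, and a long probe across the hairpin can bind cRNA of that transcript. The mature sequence as RefSeq gives it (GRCm38.p6) is in capitals in the probes that shared the most bases with a hairpin.
CUST_OEV3_093522: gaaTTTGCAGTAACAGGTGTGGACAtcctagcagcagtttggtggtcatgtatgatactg
CUST_OEV3_074041: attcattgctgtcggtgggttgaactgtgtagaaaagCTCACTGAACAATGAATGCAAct
CUST_OEV3_055743: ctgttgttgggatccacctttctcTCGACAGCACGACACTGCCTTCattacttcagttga
CUST_OEV3_093522 lies within the hairpin of Mir6516 with all 60 bases, its miR-6516-5p at chr11:117077370-117077391. It had scaled log2 signals of -0.36, 0.10 and -0.36 on Fscn2+/+ and -0.38, -0.35 and -0.65 on Fscn2-/- arrays, which overlap (log2 fold change -0.25 ± 0.19, limma, adjusted p = 0.592). CUST_OEV3_074041 lies in the hairpin of Mir181b-1 (60 bases, miR-181b-1-3p at chr1:137966690-137966710) and CUST_OEV3_055743 in that of Mir196b (59 bases, miR-196b-3p at chr6:52230094-52230115). Both were well above background on 4 of 6 arrays, at -4.96 to -3.35 and -4.86 to -3.83. CUST_OEV3_074041 was not tested, since it did not meet the filter in either genotype.

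Detection of the CUST_ probes rose with their G and C content, and the genotype difference varied with it. Outside the third range, 19.8% of values were well above background in probes with 19 to 21 G or C bases, 38.5% with 26 to 27, 59.5% with 30 to 32 and 68.6% with 33 or more. The median log2 fold change of tested probes in the same groups was -0.07, 0.07, 0.14 and 0.06 over 538, 15518, 750 and 341 probes, and so did not rise throughout. A_ probes of the same composition had -0.10, -0.04, 0.01 and 0.03. The share of composition in the genotype difference was not tested.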

How the data were processed

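Inner ear RNA of 3 Fscn2+/+ and 3 Fscn2-/- mice was hybridised to 6 one-colour arrays, grouped by the genotype in the labels. The authors deposited spot intensity files of Agilent Feature Extraction 10.7.1.1 (per the labels and file headers), with a processed signal intensity corrected for background, the raw mean signal and flags. The authors deposited also a table of log2 values for all probes. It lay close to quantile-normalized log2 processed signal (median difference at most 0.0018 in size, every column with a median of 3.92). The step that made it is not given in the sources used here.

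Log2 of processed signal was taken over spots without an outlier flag, and each array's 75th percentile over 48844 probes well above background on all 6 arrays was subtracted. The genotype term was fitted by limma 3.58.1 under R 4.3.3 (lmFit, eBayes, no covariates), with Benjamini-Hochberg adjustment over 63104 probes. On simulated arrays of 63104 probes, 91% of 100 probes changed by 1.5 and 100% of 100 changed by 3 on the log2 scale were called, with 371 unchanged probes called. The simulated noise was normal and independent between probes and arrays, without slides, raised blocks or a dim level that moves with genotype. The 371 calls are therefore no estimate of the false calls on the real arrays. Values per array were compared by exact permutation. Sequences were searched for exact matches in RefSeq windows and miRNAs of GRCm38.p6 (27025 genes), since the files pair no probe with a gene. The file headers name mm9 and give no probe a position. With 1 mouse per array, precision is limited by the 6 arrays.

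Probes, lists and comparisons were chosen with earlier results of these data known. Probes were named by fixed counts: the 5 brightest, the 5 largest changes in each direction among probes well above background on all arrays, past both thresholds and without overlap, the 5 smallest adjusted p in each direction (none was lower), and the 3 brightest pairs with A_ probes on the same and on opposite strands. The 3 backward pairs were those with the most shared bases, and all other named probes were chosen after their values were seen. Alternatives were other scalings, background correction, filters, the methods' t-test, a slide or replicate block, the raised blocks left out, and each array left out. The counts without the third range and on the second slide alone were added after seeing the data.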

Additional observations from a re-analysis of the deposited data

How the results depend on the processing

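The 1215 CUST_ probes called higher and 155 called lower (88.7% higher, 41 with an adjusted p below 0.05) changed with the processing as follows. With a fold change of at least 1.5 the numbers were 3221 higher and 858 lower (78.97% higher). Quantile normalization gave 771, 524 and 59.5%, and the authors' processed values 767, 534 and 58.95%. The 75th percentile over all probes gave 380 lower, 69.0% higher and 104 with an adjusted p below 0.05, and that over A_ probes gave 91.0% and 27. Normexp background correction gave 86, 4, 95.6% and 1. No filter on dim probes gave 10634, 548 and 95.1%, and the fit kept to probes with that flag on all 6 arrays gave 736, 7, 99.1% and 1. A trend with robust fitting gave 79 with an adjusted p below 0.05, and the methods' t-test gave 603 higher, 85.2% and 0, with 3358 at an unadjusted p below 0.05. The slide as a block gave 787, 84.6% and 1, and shared 501 of the 1370 calls. The second slide alone gave 752, 83.8% and 0 (limma, 2248 at an unadjusted p below 0.05). Without the raised blocks there were 759, 86.7% and 2, after centring by block and brightness 944 higher, 574 lower, 62.2% and 5, and without probes 75002 to 89765 86.9% were higher. Leaving out 1 array each gave 777 to 1907 higher, 117 to 576 lower, 0 to 819 with an adjusted p below 0.05 and 62.1% to 90.2% higher. Without Fscn2+/+ array 1 there were 777 higher, without Fscn2+/+ array 3 there were 1907 higher, and without Fscn2+/+ array 2 or 3 or Fscn2-/- array 1 or 2 there were 576, 567, 278 and 236 lower. The cause of these changes was not tested.

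The median log2 fold change of CUST_ minus that of A_ probes of equal mean signal, 0.14, was 0.10 to 0.25 with 1 array left out, with 0.25 without Fscn2-/- array 1 and 0.21 without Fscn2-/- array 2. The difference in the share well above background between genotypes was -9.70 points with the flag for a positive and significant signal, and -7.70 to -3.48 with 1 array left out. The difference from A_ probes of equal signal turned from -0.29 to 0.25 points when strata were set on the Fscn2+/+ arrays. The excess of the SD over that of A_ probes, 0.035, was 0.011 to 0.045 with 1 array left out, with 0.011 without Fscn2+/+ array 1 and 0.021 without Fscn2+/+ array 3.

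Same-numbered mice deviated together weakly for number 1 and hardly for numbers 2 and 3 (correlations 0.23, 0.03 and -0.03). The numbers were not taken as pairs. With the replicate block 1274 probes were higher and 158 lower, 50 of them with an adjusted p below 0.05.

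The 15 called probes named in the report had 282 values under the alternatives, of which 255 kept direction and call, 26 lost the call and 1 turned in direction. Probes in the raised blocks have no value without these blocks. Some alternatives changed only the test or the filter and not the fold change. The slide as a block and the second slide alone gave the same fold changes. The probes were chosen as extremes of these data, so the tally is no measure of robustness. The 5 brightest, which were not called, had 100 values, of which 8 turned and 2 were exactly 0. CUST_OEV3_091299 turned to -0.053 with the percentile over all probes, -0.027 in the authors' values and -0.0085 with the slide as a block and on the second slide alone. CUST_OEV3_066769 turned to -0.068 with the percentile over all probes. CUST_OEV3_074855 turned to -0.10 with that percentile and to -0.14 with the slide as a block and on the second slide alone. CUST_OEV3_013922 turned to -0.28 after centring by block and brightness.

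The folds of probes near the lowest signal that was well above background are not measured ratios, and 63533 CUST_ probes were too dim to be tested.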
